A study of Mus musculus with 44 samples.

Results

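Mast cell transcripts were followed through 44 libraries of mouse intestine as 8 genes listed by symbol: Mcpt1, Mcpt2, Mcpt4, Cma1, Cpa3, Tpsb2, Fcer1a and Ms4a2. The list was chosen with earlier results of these data known. All 8 matched a row among the 29720 genes of the count tables. The libraries came from 2 models of inflammatory bowel disease on a C57BL/6 background, with 4 groups in each, and asked how tissue RNA differed with inflammation and with a short course of ATI-450, a compound that blocks signalling through the kinase MK2.

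In the T cell transfer model every mouse was Rag1 null and so had no T or B cells except those it was given. Inflamed mice of that model had been injected with 400000 naive T cells and developed colitis over 8 to 12 weeks. Their non-inflamed controls had been injected with 200000 bulk T cells, so these groups differ in cell number and cell kind as well as in colitis. In the TNFΔARE model, inflamed mice were Tnf ΔARE/+, carrying 1 Tnf copy without the AU-rich element that shortens the life of its mRNA in every cell, and non-inflamed mice were Tnf +/+ littermates, dosed from 16 weeks of age. Vehicle (methylcellulose and Tween20 in PBS) or ATI-450 at 3 mg/kg was given, repeated after 16 h, and tissue was taken 90 min after the second dose, which the series text summarises as 24 h. The transfer model contributed 5 non-inflamed vehicle, 6 inflamed vehicle, 6 non-inflamed inhibitor and 6 inflamed inhibitor libraries, and the TNFΔARE model 5, 5, 5 and 6. Replicate numbers below are those of the labels. The labels do not state that libraries of a group came from separate mice, so p-values measure only the spread between these libraries, which may be technical.

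Mast cells are tissue-resident cells that store proteases in granules and release them when IgE bound to their high-affinity receptor is cross-linked. In mice, mucosal mast cells of the gut epithelium are marked by the chymases mMCP-1 and mMCP-2 (genes Mcpt1 and Mcpt2) and expand with T cell cytokines, while connective tissue mast cells of the submucosa and muscle carry the chymases mMCP-4 and mMCP-5 (Mcpt4 and Cma1), carboxypeptidase A3 (Cpa3) and the tryptase mMCP-6 (Tpsb2). Fcer1a and Ms4a2 encode the alpha and beta chains of the IgE receptor, which basophils carry too.

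The 4 chymase genes lie close together on chromosome 14 (GRCm38, GENCODE M21 annotation, all protein-coding). Cma1 spans chr14:55941451-55944675 on the minus strand, Mcpt1 chr14:56017971-56020384 and Mcpt2 chr14:56042041-56044642 on the plus strand, and Mcpt4 chr14:56059629-56062313 on the minus strand. Cpa3 lies at chr3:20215620-20242181, Tpsb2 at chr17:25366305-25369098, Fcer1a at chr1:173221284-173227214 and Ms4a2 at chr19:11615523-11623719. The transcripts of Mcpt1 and Mcpt2 were identical over 82.5% of aligned bases, and those of Mcpt1 and Mcpt4 over 82.8%. Reads can be split between such copies, so the share of 31-base words that also occur in another gene was counted: 6.71% for Mcpt1, 5.14% for Mcpt2, 12.2% for Mcpt4 (mostly with Cma2, a neighbouring chymase gene) and 10.6% for Cma1 (with Gm48934, a nearby pseudogene that has no row among the genes used here). Cpa3 and Fcer1a shared none. For the 4 chymases the division of reads between copies is uncertain, and these shares of words do not measure how many reads were affected.

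The stretch just before the start of transcription is shown for 4 members because their transcripts differed between groups or models, or, for Mcpt4, because it is a near copy of Mcpt1 that stayed low. Each is 250 bases from RefSeq (GRCm38.p6), 5′ to 3′ on the gene's strand, at chr14:56017714-56017963 (plus), chr14:56062311-56062560 (minus), chr14:55944676-55944925 (minus) and chr3:20242182-20242431 (minus) in the order printed. Capitals mark GATAA, or TTATC where it lies on the other strand, the core letters bound by GATA factors, which mast cells need.
Mcpt1: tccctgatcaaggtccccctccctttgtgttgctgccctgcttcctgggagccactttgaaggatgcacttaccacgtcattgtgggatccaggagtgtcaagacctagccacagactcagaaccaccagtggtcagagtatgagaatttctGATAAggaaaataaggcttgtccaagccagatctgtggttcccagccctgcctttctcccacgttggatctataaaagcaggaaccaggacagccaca
Mcpt4: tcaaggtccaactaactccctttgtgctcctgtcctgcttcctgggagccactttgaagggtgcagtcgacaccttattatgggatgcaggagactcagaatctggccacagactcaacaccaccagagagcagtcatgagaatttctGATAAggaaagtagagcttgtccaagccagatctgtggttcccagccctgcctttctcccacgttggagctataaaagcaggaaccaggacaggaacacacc
Cma1: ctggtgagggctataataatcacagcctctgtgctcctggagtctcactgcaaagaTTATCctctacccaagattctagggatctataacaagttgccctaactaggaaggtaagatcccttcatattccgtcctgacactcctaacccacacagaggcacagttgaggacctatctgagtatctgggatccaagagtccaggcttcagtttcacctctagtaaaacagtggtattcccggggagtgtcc
Cpa3: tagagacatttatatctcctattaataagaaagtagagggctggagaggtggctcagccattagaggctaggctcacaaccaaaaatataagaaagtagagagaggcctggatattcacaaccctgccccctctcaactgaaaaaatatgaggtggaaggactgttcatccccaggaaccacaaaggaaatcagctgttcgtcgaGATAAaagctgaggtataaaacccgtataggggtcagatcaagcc
RefSeq entries were matched for 6 members, and all 6 held GATAA on either strand, against 22.6% of 32851 promoters of this length. No entry was matched for Mcpt2 and Tpsb2. In Mcpt1 the motif began 98 bases before the start and in Mcpt4 102 bases before it, and these promoters were identical at 84.1% of aligned positions. Cma1 had it at 194 bases and Cpa3 at 45 bases. Fcer1a held 1 and Ms4a2 held 3. TATAAA was present in 4 of the 6, against 12.4% of all promoters (both strands). A match of letters describes the window and says nothing of binding.

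Library totals ran from 5953607 to 22347011 counts in the transfer model and from 5800923 to 13113931 in the TNFΔARE model, at which 3 counts correspond to 0.134 to 0.504 and 0.229 to 0.517 CPM (counts scaled to a common library size). The labels give a batch for each library, spread unevenly over groups. Hoxb13, a distal colon gene, ran from 102 to 613 CPM in the transfer libraries, except 1, and reached no more than 0.926 CPM in any TNFΔARE library, so the models also differ in gut region. That 1, inflamed vehicle replicate 3, had 0.0767 CPM of Hoxb13 and 34855 CPM over a small intestinal enterocyte list. Pancreatic acinar transcripts summed to between 500 and 37724 CPM in inflamed vehicle replicates 1 and 5 and inflamed inhibitor replicates 3, 5 and 6 of the transfer model, against at most 311 CPM in its non-inflamed libraries. Squamous epithelial transcripts summed to between 107 and 420 CPM in another set of 9 transfer libraries, which overlaps those 6, and to at most 7.45 CPM in the other 14. The 9 were non-inflamed vehicle replicate 7, inflamed vehicle replicates 1, 2 and 6, non-inflamed inhibitor replicates 5 and 6, and inflamed inhibitor replicates 1, 5 and 6. Non-inflamed vehicle replicate 7, the highest of them, was also the library of its group with the most Mcpt1, Mcpt2 and Cma1. The 5 libraries with pancreatic transcripts had Hoxb13 at 111 to 194 CPM, so distal colon transcripts were present in them too. The pancreatic cut was the highest non-inflamed sum, so only inflamed libraries could lie above it. Results of the transfer model are given without the 6 and without the 9 libraries as well, and the part of these tissues was not tested.

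Averaged over all libraries of a model, the mucosal chymases led the list. Per kilobase of exon, mean levels over the 23 transfer libraries were 6.34 ± 9.38 CPM (SD) for Mcpt1, 4.42 ± 7.53 for Mcpt2 and 2.46 ± 1.65 for Cma1, and all other members were below 0.3. That order came from the inflamed groups: without inflammation Cma1 had the highest mean, at 1.99 CPM per kilobase under vehicle against 0.881 for Mcpt1 and 0.454 for Mcpt2, and at 2.65 under the inhibitor against 0.773 and 0.401. Mcpt1 was above Mcpt2 in 21 of 23 libraries, Mcpt2 was above Cma1 in 13 and below it in 10, and Cma1 was above Cpa3 in 20. The next in order, Cpa3 (0.294 ± 0.294), Mcpt4 (0.289 ± 0.282), Fcer1a (0.214 ± 0.337) and Tpsb2 (0.199 ± 0.174), did not differ beyond their spread, and Ms4a2 was last at 0.0290 ± 0.0407. Over the 21 TNFΔARE libraries Mcpt1 (2.72 ± 2.53 CPM per kilobase) was above Mcpt2 (1.30 ± 1.07) in 20, and Mcpt2 was above Tpsb2 (0.113 ± 0.129) in all 21. Below that, Tpsb2, Cpa3 (0.109), Mcpt4 (0.0715), Fcer1a (0.0571), Cma1 (0.0545) and Ms4a2 (0.0168) overlapped. In whole tissue, fewer mast cells and less RNA per mast cell cannot be told apart.

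**Figure D1:**
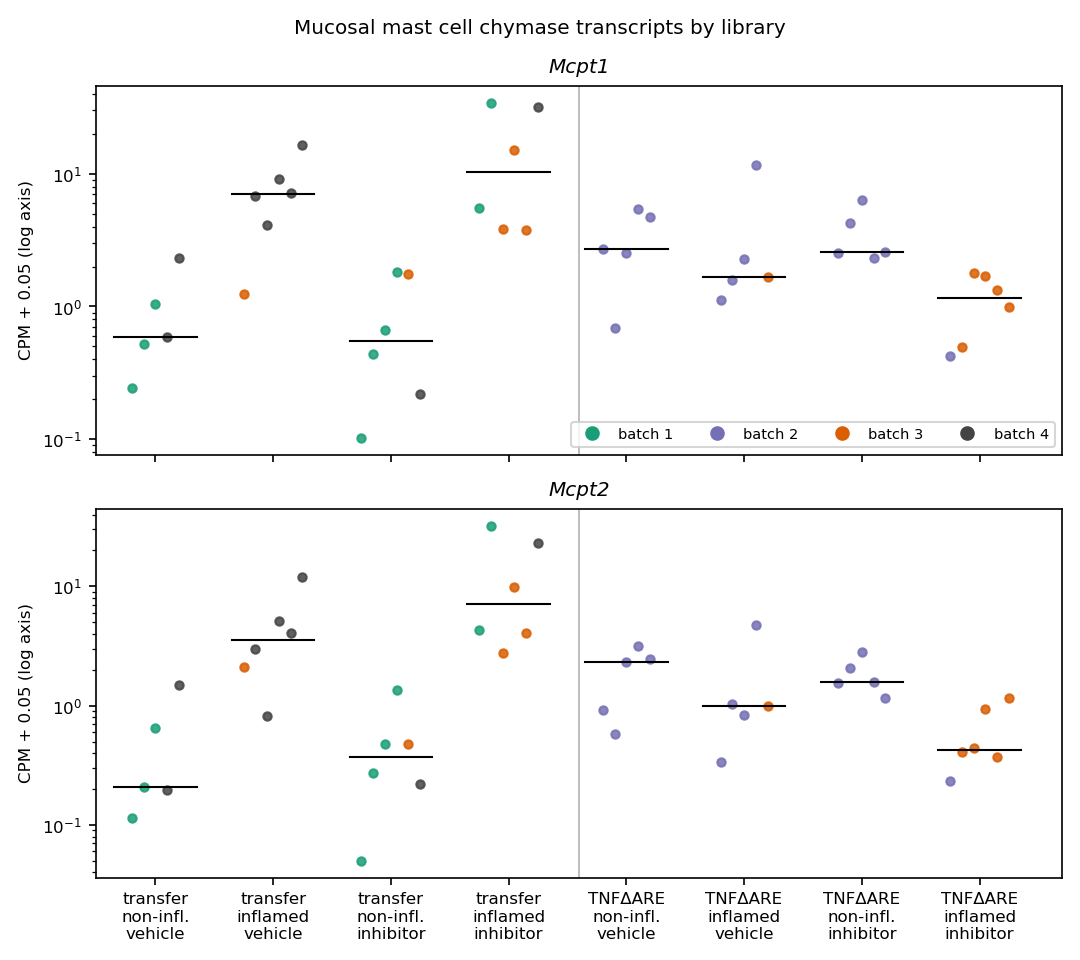
Levels of Mcpt1 (top) and Mcpt2 (bottom) in each library, in CPM plus 0.05 on a log axis, by group; points are libraries coloured by batch, black lines are group medians and the grey line separates the models. For Mcpt1, every inflamed transfer library except 1 lies above the highest non-inflamed transfer value (2.26 CPM), while TNFΔARE groups overlap under vehicle.

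Under vehicle, transfer mice with colitis had more Mcpt1, Mcpt2 and Cpa3 RNA than their controls, while Cma1 was not called. Mcpt1 read 0.192, 0.474, 0.999, 0.542 and 2.26 CPM in non-inflamed replicates 1, 2, 4, 6 and 7. In the 6 inflamed libraries it ran from 1.20 to 16.4 CPM with a median of 6.97. Inflamed replicate 1, at 1.20 CPM, was the single inflamed library within the non-inflamed range. The fitted difference was 2.77 ± 0.84 on the log2 scale (SE; edgeR quasi-likelihood test, adjusted p = 0.0327).

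Mcpt2 read 0.0639, 0.158, 0.599, 0.148 and 1.44 CPM without inflammation and 0.767 to 11.98 CPM (median 3.48) with it. Here inflamed replicate 3, the library with small intestinal transcripts, was the only one inside the non-inflamed range. The difference was 3.20 ± 0.88 (adjusted p = 0.0189). Cpa3, an exopeptidase that trims granule proteins and venom peptides, was scarce: 0, 0.0527, 0.0666, 0.197 and 0.103 CPM against 0.172 to 1.33 (median 0.581), a difference of 2.12 ± 0.68 (adjusted p = 0.0351), with inflamed replicate 1 inside the non-inflamed range. It rested on 8 counts in the non-inflamed and 68 in the inflamed libraries.

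Of the 8 members, 4 passed the filter on low counts in this model, and 3 of those 4 were called higher and 0 lower, where 14.2% of 15317 genes were called, 7.90% higher and 6.28% lower. Their median difference was 2.44, against 0.05 over all genes tested. A member can pass the filter through the group where it is high, so the count describes those 4 alone. Without the 6 libraries with transcripts of other tissue the 3 were still called by edgeR. Mcpt1 had 3.35 (adjusted p = 0.0406), Mcpt2 3.46 (0.0479) and Cpa3 2.48 (0.0336). Without the 9 libraries with squamous transcripts, which leaves 4 non-inflamed and 3 inflamed ones here, 0 were called: Mcpt1 had 3.63 (adjusted p = 0.177), Mcpt2 4.44 (0.216) and Cpa3 1.46 (0.487). Single libraries decided some calls. Mcpt1 was lost without non-inflamed replicate 1 (adjusted p = 0.0552), 2 (0.0525) or 6 (0.142), or inflamed replicate 6 (0.0648), and Mcpt2 without non-inflamed replicate 6 (0.0921). Cpa3 was lost without non-inflamed replicate 1, 2, 6 or 7 or inflamed replicate 4 or 6 (adjusted p from 0.0508 to 0.113). Fitted to these groups alone, Mcpt1 had 2.59 and Mcpt2 2.59 with adjusted p of 0.405 and 0.440. Within batch 4, which held 5 inflamed and 2 non-inflamed libraries, the values were 2.60 for Mcpt1, 2.60 for Mcpt2 and 2.20 for Cpa3, each at an adjusted p of 0.558; 0 genes of any kind were called there.

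The same genes were called among mice given the inhibitor, with larger fitted values for the chymases. Mcpt1 ran from 0.0524 to 1.78 CPM (median 0.501) in the 6 non-inflamed libraries and from 3.73 to 34.2 CPM (median 10.2) in the 6 inflamed ones, with no overlap. Its difference was 4.45 ± 0.77 (edgeR, adjusted p = 4.40e-04). Mcpt2 ran from 0 to 1.30 CPM (median 0.323) and from 2.72 to 32.2 CPM (median 7.09), again without overlap, a difference of 5.18 ± 0.83 (edgeR, adjusted p = 1.89e-04). How many of all genes had groups without overlap was not counted. Cpa3 ran from 0 to 0.709 and from 0.249 to 1.68 CPM and its groups overlapped; the difference was 1.75 ± 0.58 (adjusted p = 0.0287).

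Thus 3 of the 4 tested members were called higher and 0 lower, where 25.0% of genes were called, 14.0% higher and 11.0% lower. Without the 6 libraries the values were 4.72 for Mcpt1, 5.42 for Mcpt2 and 2.08 for Cpa3, all called. Without the 9 libraries with squamous transcripts Mcpt1 (5.59, adjusted p = 0.00460) and Mcpt2 (6.04, adjusted p = 0.00604) were called, and Cpa3 (3.25, adjusted p = 0.0517) was not. On the deposited normalized signal Cpa3 was not called either (1.45, adjusted p = 0.0592). Mcpt1 and Mcpt2 were called in each of 12 fits with 1 library left out. Cpa3 was not called without non-inflamed replicate 2 (adjusted p = 0.0511) or 6 (0.0940), or inflamed replicate 2 (0.189) or 4 (0.0518). Within batch 1 alone Mcpt1 differed by 4.81 and Mcpt2 by 5.22 (adjusted p = 0.0163 and 0.0173). Batch 3 alone, with 3 inflamed libraries and 1 non-inflamed, gave 2.11 for Mcpt1, 3.63 for Mcpt2 and 0.32 for Cpa3, none called.

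Cma1, a chymase of connective tissue mast cells, did not follow them. It read 1.92, 2.37, 0, 0 and 6.53 CPM in non-inflamed vehicle replicates 1, 2, 4, 6 and 7, and from 0 to 4.52 CPM (median 2.24) in the inflamed vehicle libraries, a difference of -0.23 ± 0.87 with a 95% interval from -2.04 to 1.58. Among mice given the inhibitor it ran from 1.49 to 5.53 CPM without and from 1.68 to 5.78 CPM with inflammation, a difference of 0.20 ± 0.76 (95% interval -1.39 to 1.80). Neither passed the test (edgeR, adjusted p = 0.880 and 0.857). These intervals leave room for changes of over 1 on the log2 scale either way. The vehicle value was 0.01 without inflamed replicate 3, 1.28 without non-inflamed replicate 7 and -0.07 without the 6 libraries with transcripts of other tissue. Without the 9 with squamous transcripts it was 7.78 (adjusted p = 0.247), with 2 of the 4 non-inflamed and 1 of the 3 inflamed libraries then at 0. The inhibitor-arm value was 0.39 without the 6 and 1.35 without the 9. Whether a listed 0 of Cma1 means no transcript, or reads assigned to a near copy, was not tested.

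**Figure D2:**
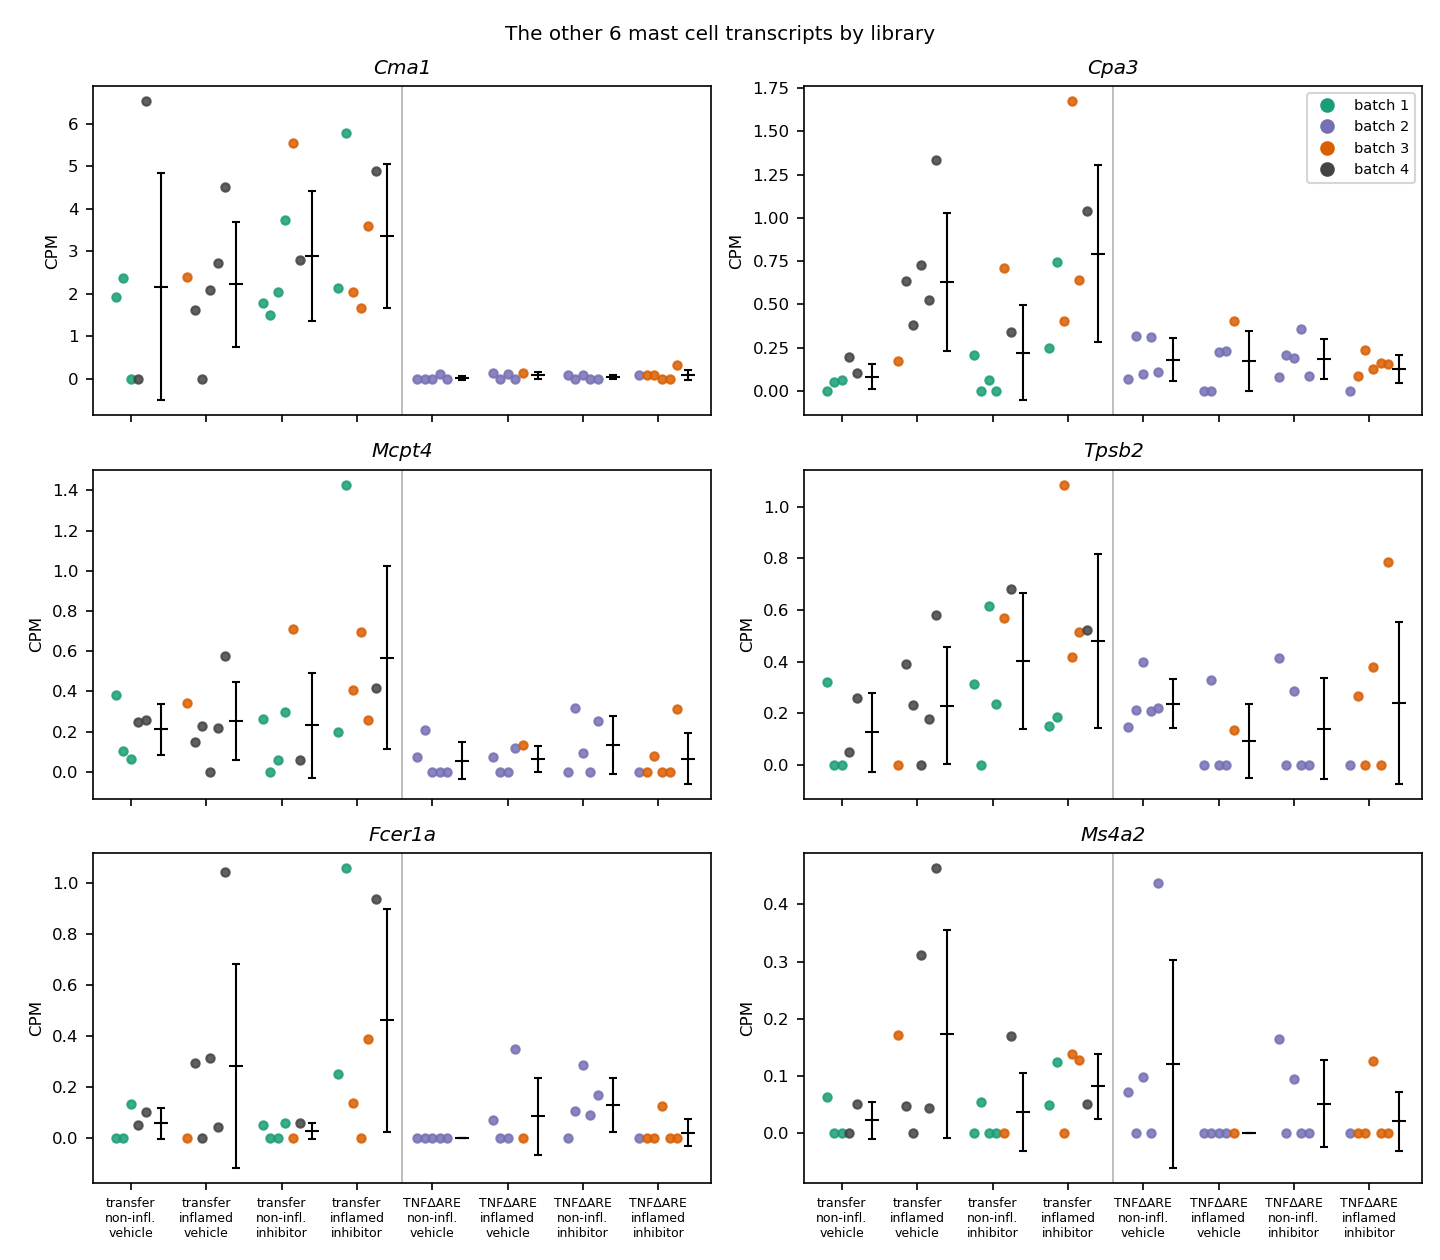
Levels in CPM (linear axis) of the other 6 members in each library by group; points are libraries coloured by batch, and the dash with bars beside them is the group mean ± SD. Cma1 has counts in 20 of the 23 transfer libraries and near 0 throughout the TNFΔARE model.

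The 4 remaining members did not pass the count filter. Mcpt4, a chymase close to human chymase in function, summed to 104 counts over the 23 transfer libraries, 45 of them in the inflamed inhibitor group, where replicate 2 had its highest value of 1.43 CPM. Over the TNFΔARE libraries it summed to 16 counts. Tpsb2, a tryptase that forms heparin-bound tetramers, reached at most 1.09 CPM and was at 0 in 5 transfer libraries. Its group medians there were 0.0492 and 0.203 CPM under vehicle and 0.441 and 0.467 CPM under the inhibitor, without and with inflammation. In TNFΔARE mice under vehicle it was found in all 5 non-inflamed (0.145 to 0.396 CPM) and in 2 of 5 inflamed libraries. Ms4a2, the signal-amplifying beta chain, gave 29 counts in the transfer model, 17 of them in the inflamed vehicle group, and 10 in the TNFΔARE model. When every gene with a count was fitted, Mcpt4, Tpsb2 and Ms4a2 were not called in any inflammation comparison within a model (edgeR, lowest adjusted p = 0.127).

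Fcer1a, the IgE-binding chain, was sparse but uneven. In the transfer model it gave 5 counts over 5 non-inflamed and 31 over 6 inflamed vehicle libraries, and 3 over 6 non-inflamed and 44 over 6 inflamed inhibitor libraries. In the fit without a count filter (22285 genes) its inhibitor-arm difference was 4.07 ± 0.87 (edgeR, adjusted p = 0.00140) and its vehicle-arm difference 2.06 ± 0.91 (adjusted p = 0.159). Of the 12 inflamed libraries, 3 held no Fcer1a count. In TNFΔARE mice it gave 0 counts in the 5 non-inflamed vehicle libraries and 12 in all others. Mcpt8 and Prss34 mark basophils, the other cells with this receptor. Mcpt8 had group medians from 0 to 0.0643 CPM in the transfer model and a highest library of 2.95. Of the basophil list, 0 of the 2 tested genes, Cd200r3 and Gata2, were called in either arm, where 14.2% and 25.0% of all genes were. Cd200r3 had an unadjusted p under 0.05 in both arms (edgeR). Both genes also belong to the list of mast cell granule and lineage genes used below, so they cannot tell basophils from mast cells. Inflamed vehicle replicate 6 had the most Fcer1a of its group (1.04 CPM). Its basophil list sum was 10.0 CPM, against 1.58 to 3.77 CPM in the other 5 of its group. That list includes Fcer1a and Ms4a2 themselves. Inflamed inhibitor replicates 2 and 6 had 1.06 and 0.937 CPM of Fcer1a with list sums of 3.91 and 2.76 CPM. Non-inflamed vehicle replicate 6 had a list sum of 9.80 CPM with 0.0492 CPM of Fcer1a. The part of basophils was not tested.

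Inflammation in the TNFΔARE model came with no called change of a member. Under vehicle Mcpt1 read 2.67, 0.633, 2.48, 5.33 and 4.70 CPM in non-inflamed and 1.08, 1.53, 2.24, 11.55 and 1.61 CPM in inflamed replicates 1 to 5. Inflamed replicate 4 stood far above the other inflamed libraries, at 1.08 to 2.24 CPM. Only non-inflamed replicate 2, at 0.633 CPM, lay below those, and the other non-inflamed libraries, at 2.48 to 5.33 CPM, lay above them. Non-inflamed replicate 2 also had 697 CPM over an adipose and mesothelium list, against 54.1 to 80.8 CPM in the rest of its group. The part of that tissue was not tested. The inflammation difference of Mcpt1 was 0.18 ± 0.61 (95% interval -1.09 to 1.46, edgeR, adjusted p = 0.907). It was -1.13 (edgeR, adjusted p = 0.174) without inflamed replicate 4. Mcpt2 read 0.867, 0.527, 2.28, 3.14 and 2.40 CPM against 0.287, 0.981, 0.783, 4.67 and 0.939. Its difference was -0.31 ± 0.58 (edgeR, adjusted p = 0.816), or -1.57 (edgeR, adjusted p = 0.0586) without inflamed replicate 4. Cpa3 summed to 33 counts over this model, with group medians from 0.109 to 0.224 CPM. Only Mcpt1 and Mcpt2 passed the count filter, and 0 of them were called or had an unadjusted p under 0.05, where 15.9% of 14370 genes were called, 8.66% higher and 7.27% lower. DESeq2 and limma-voom called 0 as well.

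Among TNFΔARE mice given the inhibitor both chymases read lower with inflammation, but the design leaves this unresolved. Mcpt1 read 2.49, 4.22, 6.25, 2.25 and 2.54 CPM in the 5 non-inflamed libraries and 0.370 to 1.73 CPM (median 1.11) in the 6 inflamed ones, which did not overlap. The share of all genes without overlap here was not counted. Mcpt2 read 1.49, 2.00, 2.75, 1.53 and 1.10 CPM against 0.185 to 1.10 CPM (median 0.374), with replicate 6 of the inflamed group at the edge of the range. With batch in the model the differences were -1.56 ± 1.04 and -1.81 ± 0.99 (edgeR, adjusted p = 0.412 and 0.288), so 0 of 2 were called, or had an unadjusted p under 0.05, where 12.5% of genes were called, 7.91% higher and 4.56% lower. DESeq2 and limma-voom called 0 too. All non-inflamed libraries were of batch 2 and 5 of the 6 inflamed ones of batch 3. Without a batch term both were called lower (-1.73, adjusted p = 0.0455, and -1.80, adjusted p = 0.0346). The estimate leaned on inflamed replicate 1, the single one of batch 2: without it the values were -0.25 and -0.88, and within batch 2 they were -3.21 and -3.17 (adjusted p = 0.165 and 0.160). Apart from that library, batch and inflammation cannot be told apart here.

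**Figure D3:**
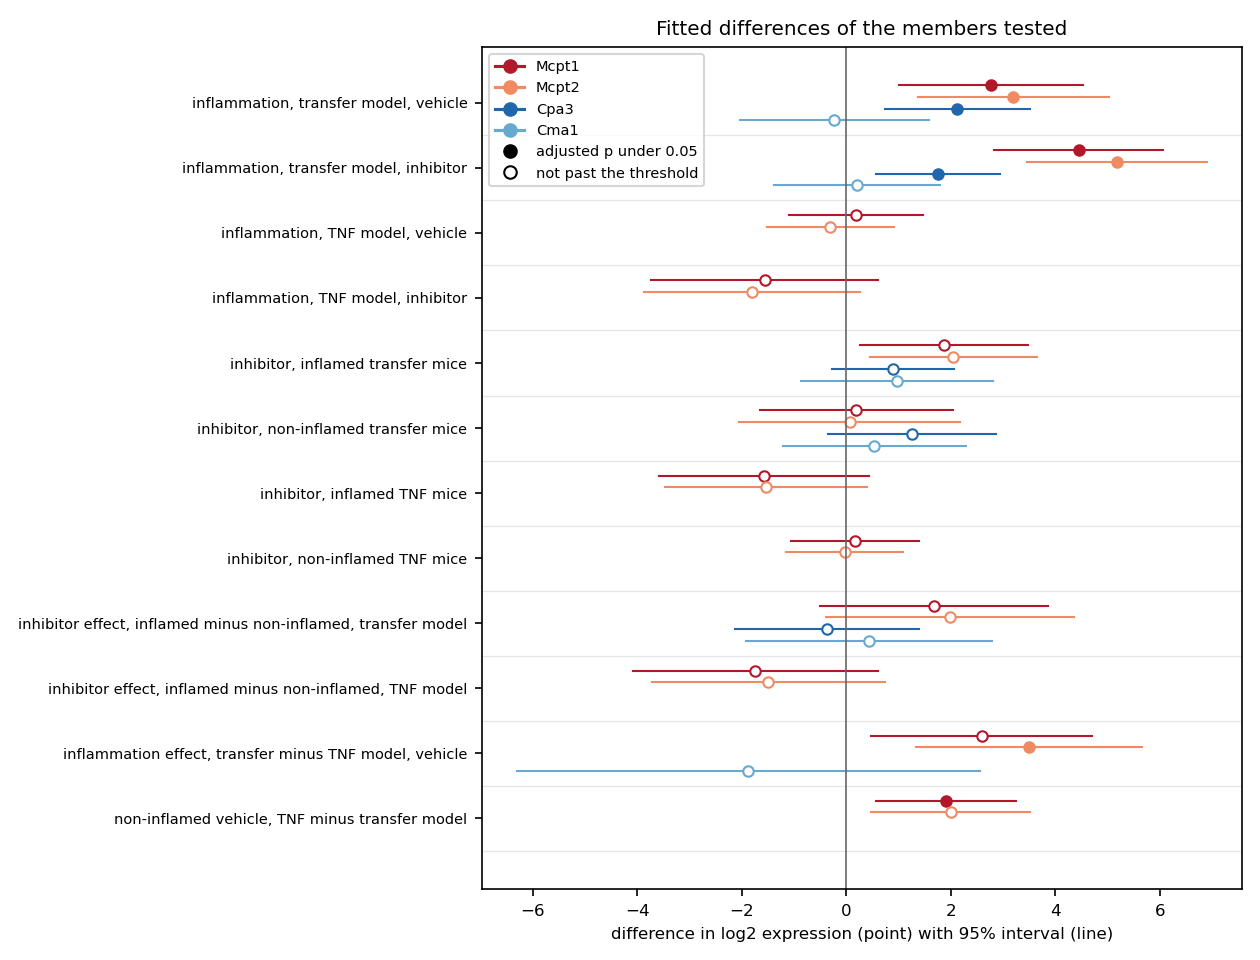
Fitted log2 differences of the members tested, one row per comparison; points are estimates, lines 95% intervals, filled points passed an adjusted p of 0.05. The called values are Mcpt1, Mcpt2 and Cpa3 with inflammation in the transfer model, Mcpt2 in the difference of that effect between models and Mcpt1 between non-inflamed mice of the models.

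The inflammation differences of the models were compared in a joint fit of the 44 libraries. Mcpt2 differed more in the transfer than in the TNFΔARE model, by 3.49 ± 1.07 on the log2 scale (edgeR, adjusted p = 0.0467). Mcpt1 had 2.59 ± 1.04 (adjusted p = 0.147) and Cma1 -1.88 ± 2.21 (adjusted p = 0.708). Thus 1 of 3 tested members was called, where 5.27% of 15565 genes were called, 3.37% higher and 1.91% lower. The Mcpt2 call was kept in 8 of 21 fits with 1 library left out. It was lost without transfer non-inflamed replicate 1, 2, 4 or 6, transfer inflamed replicate 1 or 6, TNFΔARE non-inflamed replicate 3, 4 or 5, or TNFΔARE inflamed replicate 1, 2, 3 or 5 (adjusted p from 0.0501 to 0.134). Without the 6 libraries with transcripts of other tissue it was 3.76 at an adjusted p of 0.0719 (edgeR), and without the 9 with squamous transcripts 4.71 at 0.117. It was also lost without a count filter (adjusted p = 0.0661) and on the normalized signal. Without TNFΔARE inflamed replicate 4 Mcpt1 was called too, at 3.89 (adjusted p = 0.0203).

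Of the mucosal chymases, Mcpt1 was called between mice without inflammation, and Mcpt2 was not. Under vehicle, Mcpt1 was higher in the TNFΔARE model's wild-type littermates than in the transfer controls by 1.91 ± 0.61 (edgeR, adjusted p = 0.0381), with 4 of 5 libraries above the highest transfer value. Mcpt2 had 2.00 ± 0.69 (adjusted p = 0.0544), with 3 of 5 above. So 1 of 2 tested members was called, where 26.1% of 14136 genes were, 14.3% higher and 11.8% lower. Gut region, the Rag1 deletion, the transferred cells and the batch all differ between these groups and cannot be told apart. The Mcpt1 call was lost in 8 of 10 fits with 1 library left out (all but transfer replicate 7 and TNFΔARE replicate 2; adjusted p up to 0.0909), and Mcpt2 was gained without transfer replicate 7 or TNFΔARE replicate 1 or 2.

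Cma1 ran the other way between the models, as a description of levels. Its 12 counts over the 21 TNFΔARE libraries compare with 959 over the 23 transfer libraries, and the highest TNFΔARE value, 0.315 CPM, was below the lowest of the 20 transfer libraries with any count, 1.49 CPM.

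The inhibitor itself gave no called member in any of the 4 groups of mice, nor in either test of whether its effect differed with inflammation. In inflamed transfer mice Mcpt1 was higher with the inhibitor by 1.87 ± 0.77 at an unadjusted p of 0.0248 and Mcpt2 by 2.05 ± 0.77 at 0.0145 (edgeR, adjusted p = 0.990 for both). Neither passed, and the libraries overlapped, with 2 of 6 inhibitor libraries above the highest vehicle value for each gene. So 0 of 4 tested members were called by edgeR, where 0.00653% of genes (1 gene) were called, and DESeq2 and limma-voom called 0 members. The share of all genes at an unadjusted p under 0.05 was not counted. The 2 members at that level therefore have no background to be set against. The 95% intervals were 0.26 to 3.48 for Mcpt1 and 0.45 to 3.64 for Mcpt2. Vehicle and inhibitor libraries of this group came mostly from different batches. Within batch 4 the values were 1.82 and 2.18 (1 inhibitor library) and within batch 3 they were 2.64 and 1.43 (1 vehicle library). Without the 6 libraries with transcripts of other tissue they were 1.13 and 1.99, without the 9 with squamous transcripts 2.32 and 2.45, and without a batch term 1.07 and 1.50. The replicate levels behind this are those given above: medians of 6.97 and 10.2 CPM for Mcpt1 and of 3.48 and 7.09 CPM for Mcpt2.

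In non-inflamed transfer mice the inhibitor differences were 0.19 ± 0.89 for Mcpt1, 0.06 ± 1.02 for Mcpt2, 0.53 ± 0.84 for Cma1 and 1.26 ± 0.78 for Cpa3. In TNFΔARE mice, Mcpt1 had -1.58 ± 0.96 with inflammation and 0.16 ± 0.58 without it, and Mcpt2 -1.54 ± 0.93 and -0.04 ± 0.53. In all 3 of these groups of mice 0 of the members that passed the count filter were called by edgeR or had an unadjusted p under 0.05, where 0% of genes were called, and DESeq2 and limma-voom called 0 members. When every gene with a count was fitted, Tpsb2 had 1.77 ± 0.84 at an unadjusted p of 0.0441 in non-inflamed transfer mice and Fcer1a 3.49 ± 1.47 at 0.0260 in non-inflamed TNFΔARE mice (edgeR, adjusted p = 1 for both). In that fit Fcer1a also had 1.58 ± 0.76 at an unadjusted p of 0.0448 in inflamed transfer mice (adjusted p = 1). The inhibitor effect with inflammation minus that without was 1.68 ± 1.05 for Mcpt1 and 1.99 ± 1.14 for Mcpt2 in the transfer model, and -1.74 ± 1.12 and -1.50 ± 1.07 in the TNFΔARE model (edgeR, adjusted p = 1 and 0.9999). Here too 0 of the members that passed the filter were called or had an unadjusted p under 0.05, DESeq2 and limma-voom called 0, and 0% of genes were called. Without the filter Fcer1a had -4.66 ± 2.25 in the TNFΔARE model (edgeR, unadjusted p = 0.0494, adjusted p = 1). The transfer values were 1.38 and 1.96 without the 6 libraries with transcripts of other tissue, and 1.96 and 1.60 without the 9 with squamous transcripts. Whether the signs differ between the models was not tested.

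Mcpt1 and Mcpt2 moved together from library to library. Pearson's r of their log2 CPM was 0.96 over the 23 transfer and 0.89 over the 21 TNFΔARE libraries, and 0.88 and 0.83 after group and batch were removed. These points share library, depth and the similar sequence of the genes, so the values are descriptive. Mcpt1 and Cma1 had r of 0.27 and -0.29, and Mcpt1 and Cpa3 0.76 and 0.33.

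**Figure D4:**
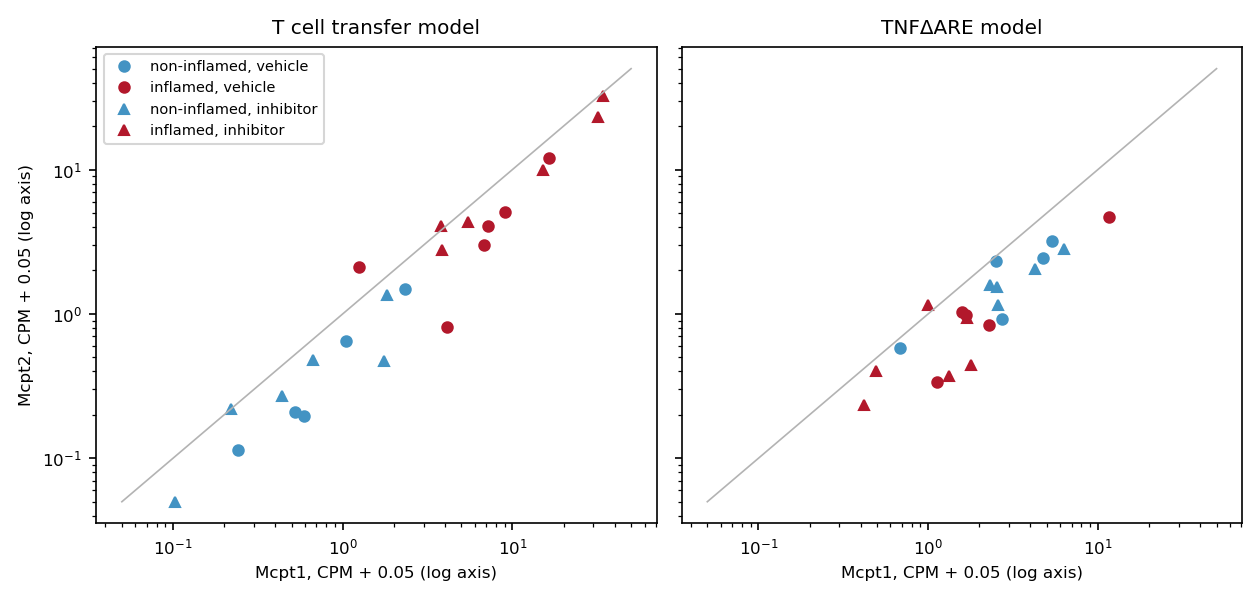
Mcpt2 against Mcpt1 in each library, in CPM plus 0.05 on log axes, for the transfer model (left) and the TNFΔARE model (right); colour marks inflammation, shape marks treatment and the grey line marks equal levels. Most libraries lie just below the line, with less Mcpt2 than Mcpt1, and inflamed transfer libraries take the upper end. Inflamed TNFΔARE libraries lie mostly toward the lower end of their model, except vehicle replicate 4, which is its highest.

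The 5 genes most like the mean of Mcpt1 and Mcpt2 over the transfer libraries were Rgs14 (r = 0.95), Sp110 (0.94), Ncf4 (0.94), Tcirg1 (0.94) and Cxcl16 (0.93). After group and batch were removed, Rgs14 had r of 0.83 and ranked 126th among all genes, and the other 4 ranked from 109th to 351st. Over the TNFΔARE libraries they were Slc22a21 (0.83), Smim27 (0.83), Cnih4 (0.81), Prrg2 (0.81) and Acadvl (0.81), and 0 genes were in both lists. Over the transfer libraries, the genes nearest the mean of Mcpt4, Cma1, Cpa3 and Tpsb2 were Tuba8 (0.82), Gm5786, Hpse, Akt2 and Hcar2 (0.74). That mean mixes genes that differ: Cma1 and Cpa3 had r of 0.23, and Cma1 was at 0 in 3 libraries. For the TNFΔARE libraries the nearest were Mmd (0.75), Chpt1, Sbspon, Zik1 and Marc1 (0.71). There the same 4 members summed to only 16, 12, 33 and 35 counts over 21 libraries, so their mean rests on few counts. How high the best of all genes would reach by chance was not tested for any of these lists.

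Other mast cell genes did not move as one with the proteases. Of 24 genes of mast cell granules and lineage, 18 were tested in the transfer model: under vehicle 4 were higher and 2 lower with inflammation (list median 0.45, all genes 0.05), and under the inhibitor 6 were higher and 1 lower (median 0.12, all genes 0.02). Over all genes 7.90% were higher and 6.28% lower under vehicle, and 14.0% and 11.0% under the inhibitor. Hdc, which makes histamine and is also active in neutrophils and basophils, rose by 3.64 ± 0.78 (edgeR, adjusted p = 0.00541) under vehicle, and Adora3, an adenosine receptor gene, by 3.38 ± 0.71 (adjusted p = 0.00363). Under the inhibitor Srgn, which encodes the granule proteoglycan core serglycin, rose by 3.57 ± 0.57 and Hdc by 3.42 ± 0.67. The lower genes, named after their values were seen, were Slc18a2, the vesicular monoamine transporter (-1.90 ± 0.44 under vehicle and -1.64 ± 0.43 under the inhibitor), and Hpgds, a prostaglandin D2 synthase (-1.07 ± 0.32 under vehicle).

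For TNFΔARE mice, 6 of 15 tested genes of that list were higher under vehicle and 7 of 15 under the inhibitor, with 0 lower, where 8.66% and 7.91% of all genes were higher. The list medians were 0.69 and 0.68. Hdc rose there as well, by 3.94 ± 0.49 (edgeR, adjusted p = 1.65e-05), from a median of 0.506 to one of 5.53 CPM, and Il1rl1, the IL-33 receptor, by 2.17 ± 0.28 (adjusted p = 1.94e-05). Under the inhibitor Hdc rose by 3.98 ± 0.62 and Mitf, a transcription factor of mast cells and other lineages, by 2.83 ± 0.36. The inflammation difference of Hdc did not itself differ between the models in the joint fit (-0.33 ± 0.94, adjusted p = 0.902). Neutrophil markers, which can share Hdc, were higher with inflammation in both arms, 7 of 8 in the transfer and 6 of 6 in the TNFΔARE model, and their part was not tested. The neutrophil list sum in TNFΔARE mice was 3.49 to 6.59 CPM without and 87.1 to 281 CPM with inflammation under vehicle. In transfer mice it was 84.8 to 769 against 28.0 to 2165 CPM. Kit, the stem cell factor receptor of mast cells and of the interstitial cells of Cajal, had group medians from 16.8 to 46.9 CPM and was not called in any inflammation comparison within a model.

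Of 20 genes of signals that act on mast cells, 10 were tested, and at least 3 of those 10 were called higher with inflammation in each arm of each model. IL-9 and stem cell factor drive mast cell growth, and TGF-beta activated by the integrin of Itgav and Itgb6 is needed for mucosal chymase expression in the gut. In the transfer model 3 were higher, 2 lower and 5 not called under vehicle (all genes 7.90% higher, 6.28% lower), and 6 higher, 1 lower and 3 not called under the inhibitor (all genes 14.0% and 11.0%). List medians were 0.47 and 0.83. Il9r, the IL-9 receptor, rose by 2.08 ± 0.58 (edgeR, adjusted p = 0.0192) under vehicle and by 2.87 ± 0.55 under the inhibitor. Il4ra rose by 1.82 ± 0.35 under vehicle, and Itgae, an integrin of intraepithelial T cells and mucosal mast cells, by 2.35 ± 0.48 under the inhibitor. The lower genes, named after their values were seen, were Kitl, which encodes stem cell factor (-0.79 ± 0.22 under vehicle and -0.77 ± 0.21 under the inhibitor), and Tgfb2 (-1.13 ± 0.31 under vehicle). In the TNFΔARE model 4 of 10 were higher and 0 lower in each arm (all genes 8.66% and 7.91% higher; list medians 0.62 and 0.97), led by Tgfb1 (1.46 ± 0.25) and Itgb6 (1.40 ± 0.22) under vehicle and by Tgfb1 (1.79 ± 0.34) and Itgav (1.51 ± 0.37) under the inhibitor. Transcripts of Il9 itself had a single library above 0, at 0.0497 CPM.

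Markers of other cells moved with the same comparisons, and their part in the results was not tested. Of 9 T cell markers, 7 were higher under vehicle and 9 under the inhibitor with inflammation in the transfer model (all genes 7.90% and 14.0% higher), their summed level going from 5.37 to 54.9 up to 51.0 to 229 CPM under vehicle. TNFΔARE mice had 0 higher under vehicle (33.0 to 152 against 62.4 to 86.9 CPM) and 1 under the inhibitor. Over all genes 8.66% and 7.91% were higher there. T cell markers rose more in the transfer model in 5 of 9 by the joint fit, where 3.37% of all genes did. Of 3 tested eosinophil markers 2 were higher in the transfer model under vehicle and 1 under the inhibitor, and the list's summed level stayed at or below 16.4 CPM there. In TNFΔARE mice 2 of 4 tested eosinophil markers were higher under vehicle and 0 under the inhibitor. Under vehicle their summed level there was 7.63 to 11.6 CPM without and 16.4 to 24.7 CPM with inflammation.

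Several markers of smooth muscle, a layer in which connective tissue mast cells lie, were lower with inflammation in the transfer model. Of 8 smooth muscle genes 0 were higher and 5 lower under vehicle and 6 lower under the inhibitor, where 6.28% and 11.0% of all genes were lower (list medians -0.82 and -0.86). Their summed level was 2745 to 9729 CPM without and 1640 to 3200 CPM with inflammation under vehicle, and 3509 to 7257 against 1709 to 3528 CPM under the inhibitor. Of 4 tested genes of the interstitial cells of Cajal 2 were lower in each arm, their list summing to 200.6 to 332 against 42.7 to 227 CPM under vehicle. Of 6 distal colon genes 2 were lower in each arm. Of 6 tested small intestinal enterocyte genes 5 were higher under vehicle and 0 under the inhibitor, where 7.90% and 14.0% of all genes were. Inflamed vehicle replicate 3 held 34855 CPM of that list. In TNFΔARE mice 0 of 8 smooth muscle genes were called in either arm, where 15.9% and 12.5% of all genes were. Of 8 enterocyte genes 6 were lower in both arms, where 7.27% and 4.56% of all genes were lower. The enterocyte sum was 10166 to 29927 CPM without and 6401 to 14811 CPM with inflammation under vehicle. The part of these shifts in the members' values was not tested.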

How the data were processed

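Poly-A RNA of intestinal tissue was sequenced with a directional library kit, per the labels' protocols. The authors deposited 2 tables for each model: expected counts per gene, which hold whole numbers of differing library totals, and a normalized signal, which served only as an alternative. Salmon 0.14.1, DESeq2 and the builds mm10 and GRCm38 appear in the submitters' processing notes; their settings are not stated in the sources at hand.

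Counts were tested in R 4.3.3 with edgeR 4.0.16: filterByExpr, TMM scaling and a robust quasi-likelihood fit of all 4 groups of a model with batch as a term. Tests were two-sided, p-values were adjusted by the Benjamini-Hochberg method across every gene tested (15317 transfer, 14370 TNFΔARE), and the threshold was 0.05. Models were compared in a joint fit with batch nested in model, or, for the non-inflamed vehicle groups, without a batch term. CPM are on TMM-scaled totals within each model. Fitted values are adjusted for batch and can differ from ratios of mean CPM. Shares of all genes were counted at the adjusted threshold only, and not for an unadjusted p under 0.05 or for groups without overlap. Identities came from biopython 1.88. Scripts were tested on simulated data. No libraries held identical values.

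The members and the gene lists (14 with the members, 137 of 138 entries measured) were chosen with earlier results of these data known. The text names every member, and of each other list at most the 2 called genes with the largest change per comparison, or genes stated to be named after the fact. Genes like the members are the 5 of highest Pearson correlation in each model. Alternatives were another scaling (RLE), other tools (DESeq2 1.42.0; limma 3.58.1 with voom and sample weights), no filter, no batch term, a replicate block, compared groups alone, single batches, limma on log2 of the normalized signal plus 1, each library left out and, chosen after seeing the data, 6 libraries or 9 libraries (summed squamous CPM above 100) left out.

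CPM floors of 3 counts cover counting error only, as duplicate reads of 1 molecule were counted separately. Same-numbered libraries did not pass the check for pairing. The replicate block was fitted to the compared groups alone, without a batch term.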

Additional observations from a re-analysis of the deposited data

Results flagged for a closer look

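The difference of the inflammation effect between models was called for Mcpt2, at 3.49 on the log2 scale (edgeR, adjusted p = 0.0467), in a test of the difference itself. The call was lost in 13 of 21 fits with 1 library left out, without a count filter and on the normalized signal. It was also lost without the libraries with transcripts of other tissue, and Mcpt1 was not called (edgeR, adjusted p = 0.147).

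Over 62 sets of 5 or 6 libraries with any count, 12 had a highest library set apart from the rest of its group by Dixon's criterion. Its rate of about 1 in 20 by chance holds for normally distributed values and not for sets mostly at 0, so 12 of 62 cannot be read against it. In 3 of the 12 all other libraries were at 0, which sets the library with a count apart by construction. Inflamed vehicle replicate 4 of the TNFΔARE model was such a library for 3 members: Mcpt1 at 11.55 CPM (next highest 2.24), Mcpt2 at 4.67 CPM (next 0.981) and Fcer1a at 0.350 CPM (next 0.0718). Inflamed inhibitor replicate 6 of that model stood apart for Mcpt4 and for Cma1, both at 0.315 CPM, and inflamed inhibitor replicate 4 for Fcer1a and for Ms4a2, both at 0.126 CPM. Among its non-inflamed vehicle libraries, replicate 4 had 0.105 CPM of Cma1 and replicate 5 had 0.437 CPM of Ms4a2. In the transfer model, non-inflamed inhibitor replicate 4 had 1.30 CPM of Mcpt2 (next 0.431), inflamed vehicle replicate 6 had 1.04 CPM of Fcer1a (next 0.312), and non-inflamed inhibitor replicate 6 had 0.170 CPM of Ms4a2. Values below about 0.5 CPM rest on a few counts.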

How the results depend on the processing

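RLE scaling changed no call of a member, and CPM levels of the members moved by less than 1 SD under other scalings. Of the members called with inflammation in the transfer model under vehicle (3), 1 remained on the normalized signal, 0 with the compared groups alone, 0 within batch 4, 0 without the 9 libraries with squamous transcripts, and 0 to 3 with 1 library left out; DESeq2 lost Cpa3 (adjusted p = 0.0601). Under the inhibitor (3), 0 remained within batch 3, 2 on the normalized signal (Cpa3 adjusted p = 0.0592), 2 without the 9 libraries and 2 to 3 with 1 library left out, and without a count filter Fcer1a was called too. In the TNFΔARE model under the inhibitor (0), 2 were called without a batch term and 2 with the replicate block, which has no batch term either. For the difference between models (1), 0 were called without a count filter (edgeR, Mcpt2 adjusted p = 0.0661) and 0 on the normalized signal. There were also 0 without the 6 libraries with transcripts of other tissue, 0 without the 9, and 0 to 2 with 1 library left out. Between non-inflamed groups (1), 2 were called by limma-voom, 2 by DESeq2, and 0 to 2 with 1 library left out. The cause was not tested.

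Signs turned only for values near 0 or with wide intervals. Cma1 with inflammation in the transfer model under vehicle (-0.23) was 0.034 without batch, 1.65 by limma-voom, 0.96 on the normalized signal, 1.95 with the replicate block, 7.78 without the 9 libraries and -0.74 to 1.28 with 1 library left out. Under the inhibitor (0.20) Cma1 was -1.19 within batch 3 and -0.32 to 0.57 with 1 left out. For the difference between models (-1.88) Cma1 was 0.88 by limma-voom, 0.51 on the normalized signal and 5.71 without the 9. The inhibitor value of Cma1 in inflamed transfer mice was -5.80 without the 9. The inhibitor value of Mcpt1 in non-inflamed transfer mice (0.19) was -0.31 without batch, -0.82 by limma-voom, -0.13 on the normalized signal, -0.25 without the 6 libraries, -0.43 with the groups alone, -0.068 with the replicate block and -0.37 to 0.78 with 1 left out; that of Mcpt2 (0.06) was -0.21 without batch and -0.76 to 0.94 with 1 left out. In the interaction of the transfer model, Cma1 (0.43) was -1.44 by limma-voom, -0.86 on the normalized signal, -6.43 without the 9 libraries and -0.98 to 0.88 with 1 left out, and Cpa3 (-0.37) was 0.40, 0.30, 1.78 and -0.68 to 0.16. For TNFΔARE mice, Mcpt1 with inflammation under vehicle (0.18) was -0.21 on the normalized signal, -0.12 with the replicate block and -1.13 to 0.49 with 1 left out, and Mcpt2 (-0.31) was -1.57 to 0.076. The inhibitor values in non-inflamed TNFΔARE mice turned within -0.13 to 0.44 for Mcpt1 and -0.26 to 0.26 for Mcpt2 with 1 left out, and Mcpt2 was 0.035 by limma-voom and 0.13 on the normalized signal.

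Counts of all genes called moved by over 1.5 times. With inflammation in the transfer model under vehicle (2172) they were 3399 without batch, 6046 by limma-voom, 1053 without the 6 libraries, 231 without the 9, 0 with the groups alone, 0 within batch 4 and 685 to 3151 with 1 library left out. Under the inhibitor (3824) they were 8044 by limma-voom, 2 within batch 3, 1737 without the 9 and 1863 to 4895 with 1 left out. For TNFΔARE mice under vehicle (2288) they were 1275 with the groups alone, 1419 with the replicate block and 1310 within batch 2; under the inhibitor (1791) 4485 without batch, 4187 with the replicate block, 305 within batch 2 and 453 without inflamed inhibitor replicate 1. For the difference between models (821) they were 1430 without batch, 1591 by limma-voom, 506 on the normalized signal, 337 without the 6 libraries and 372 without transfer non-inflamed replicate 6. Between non-inflamed groups (3691) they were 5580 by limma-voom and 2344 with the replicate block. Inhibitor comparisons gave between 0 and 19 genes throughout.

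The labels do not state that same-numbered libraries belong together. In no comparison did every pair of deviations correlate above 0.1. The highest share was 3 of 4 pairs, among non-inflamed transfer mice. There 3 of 4 pairs correlated best with their own number and all 4 shared a batch, so pairing and batch cannot be told apart. Beside the changes above, the replicate block exchanged the call of Mcpt1 (2.43, adjusted p = 0.0542) for that of Mcpt2 (2.59, adjusted p = 0.0324) between non-inflamed groups, and it changed no other call of a member. With inflammation in the transfer model, Cpa3 failed the count filter and was not tested with the compared groups alone or the block. Depth limits Mcpt4, Tpsb2, Fcer1a and Ms4a2, which mostly lay near the level of 3 counts.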

Other observations

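Cma1 had either no count or many in the transfer libraries. In 20 of the 23 it had from 12 to 127 counts (1.49 to 6.53 CPM), and in 3 it had exactly 0: non-inflamed vehicle replicates 4 and 6 and inflamed vehicle replicate 3. These 3 held 17133558, 18832061 and 15804545 counts, at which 3 counts are 0.175, 0.159 and 0.190 CPM. No library lay between. Inflamed vehicle replicate 3 is the library with small intestinal transcripts, and the TNFΔARE libraries, with Hoxb13 at 0.926 CPM or below, had at most 2 counts each. The other 2 had Hoxb13 at 613 and 367 CPM and Mcpt1 at 0.999 and 0.542 CPM. Cma1 shares 10.6% of its 31-base words with a pseudogene, and whether reads were assigned there was not tested, so a listed 0 is not read as absence.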
